A study of Mus musculus with 6 samples.

Results

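Cadherins and protocadherins were examined in the aorta of WT and *Npr1+/-* mice. They were taken as all genes of the deposited table whose mouse symbol, paired with the NCBI gene identifier, is Cdh followed by digits or starts with Pcdh, with the endothelial cadherin *Cdh5* left out. This gave 88 of the 18191 genes in the table, namely 22 cadherins, 12 solitary protocadherins and 54 protocadherins of the Pcdha, Pcdhb and Pcdhg clusters. Whole aortas of male mice gave 6 RNA libraries, 3 from WT and 3 from *Npr1+/-*, and the labels number those of a genotype from 1 to 3. *Npr1* encodes the receptor of atrial and brain natriuretic peptide, and the heterozygous knockout was made by CRISPR-Cas9 and is not limited to a cell type by the labels. Age and strain of the mice are not given in the sources used here, and the labels do not say whether each library came from 1 animal, so that p-values measure the spread between these samples.

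Cadherins are membrane proteins that hold neighbouring cells together through calcium-dependent contacts of their extracellular repeats. Classical and type II cadherins anchor these contacts to actin through catenins. Protocadherins have another cytoplasmic part and are best known from the nervous system, where each neuron uses its own combination of clustered protocadherins. In the Pcdha and Pcdhg clusters, each variable first exon has its own promoter and is spliced to constant exons that all genes of the cluster share, while the genes of the Pcdhb cluster have a single large exon. Vessel walls are known to use *Cdh13* (T-cadherin) in smooth muscle and endothelium, *Cdh2* (N-cadherin) between muscle cells and *Pcdh12* in endothelium.

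The bases upstream of a transcription start given by RefSeq are shown for 4 members outside the clusters, chosen for 3 patterns across libraries described further on. *Cdh6* was lowest in both libraries numbered 1, *Cdh23* was highest in the same 2 libraries, and *Pcdh10* and *Pcdh20* were highest in the library *Npr1+/-* 1. All 4 are RefSeq sequences of GRCm38.p6 with 250 bases, read 5′ to 3′ on the strand of the gene. *Cdh6* is shown from chr15:13173676-13173925 on the minus strand. *Cdh23* is shown from chr10:60696491-60696740 on the minus strand. *Pcdh10* is shown from chr3:45378148-45378397 on the plus strand. *Pcdh20* is shown from chr14:88471397-88471646 on the minus strand. None of these bases lies in an exon of GENCODE M21, except 113 bases beside *Pcdh10* that belong to the RNA 2610316D01Rik, which runs in the opposite direction. The start used for *Cdh6* lies 2732 bases inside the outermost end of its RefSeq gene and that for *Cdh23* 23 bases inside, so that these genes may have other starts upstream, and the first bases after the start used for *Pcdh20* are in no GENCODE M21 transcript of the gene. Capitals mark matches to the GC box.
Cdh6: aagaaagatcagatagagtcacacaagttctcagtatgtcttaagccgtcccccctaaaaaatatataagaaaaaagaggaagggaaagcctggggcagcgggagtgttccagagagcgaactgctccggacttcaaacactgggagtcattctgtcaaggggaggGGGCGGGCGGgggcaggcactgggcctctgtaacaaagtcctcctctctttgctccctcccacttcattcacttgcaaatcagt
Cdh23: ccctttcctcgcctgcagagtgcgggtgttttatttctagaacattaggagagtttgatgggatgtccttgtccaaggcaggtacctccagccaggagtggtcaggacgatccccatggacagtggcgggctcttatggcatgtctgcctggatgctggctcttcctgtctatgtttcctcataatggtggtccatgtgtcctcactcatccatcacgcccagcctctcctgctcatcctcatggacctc
Pcdh10: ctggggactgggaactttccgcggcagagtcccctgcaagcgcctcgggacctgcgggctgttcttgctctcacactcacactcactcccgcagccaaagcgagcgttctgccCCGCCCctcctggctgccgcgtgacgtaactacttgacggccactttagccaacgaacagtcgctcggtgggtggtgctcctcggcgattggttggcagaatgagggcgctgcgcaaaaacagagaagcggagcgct
Pcdh20: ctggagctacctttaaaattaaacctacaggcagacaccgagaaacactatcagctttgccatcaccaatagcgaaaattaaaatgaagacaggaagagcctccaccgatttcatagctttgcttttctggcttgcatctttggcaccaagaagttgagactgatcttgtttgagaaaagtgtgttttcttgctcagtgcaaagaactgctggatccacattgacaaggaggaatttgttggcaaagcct
All motifs were searched on both strands. The GC box was spelled GGGCGG. The E-box bound by repressors of *Cdh1* was spelled CACCTG. The TATA box was spelled TATAAA. *Cdh6* held 2 GC boxes that overlap, *Pcdh10* held 1, and *Cdh23* and *Pcdh20* held none, and the other 2 motifs were found in none of the 4 sequences. RefSeq windows were at hand for 22 of the 88 members, with 25 windows in all. A GC box was present in 9 of the 25 windows and in 32.7% of 32851 windows of all genes. The E-box was present in 3 of the 25 and in 17.2% of all windows, and the TATA box in 2 of the 25 and in 12.4% of all windows.

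The deposited values were estimated counts, which summed to between 13510970 and 16664343 per library, so that 3 counts stand for 0.18 to 0.222 CPM (counts scaled to the size of the library). Members together took between 0.0888% of the counts in *Npr1+/-* 1 and 0.169% in WT 3. *Npr1* itself was at 453, 611 and 633 CPM in WT 1 to 3 and at 295, 452 and 527 CPM in *Npr1+/-* 1 to 3, which is 566 ± 98.3 against 425 ± 118 (SD, n = 3 each). Its groups overlapped (exact two-sided permutation test, p = 0.2, where 0.1 is the smallest p possible). Markers of smooth muscle and endothelium, the cells that define the aorta, were present in all 6 libraries. Both libraries numbered 1 stood apart from the other 4 on the first principal component, which held 59.3% of the variance. Of 18 markers of sympathetic neurons, 18 were highest in *Npr1+/-* 1, and their summed level was 861 CPM there against 90.0 to 106 CPM in the other 5 libraries. In those 5, *Uchl1* alone was at 70.7 to 91.2 CPM, and 4 to 8 of the 18 markers were under 3 counts, against 0 in *Npr1+/-* 1. Results that rest on *Npr1+/-* 1 are therefore given with and without this library.

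Of the 88 members, *Cdh13*, *Pcdh7* and *Pcdhgc3* had the highest levels per length in the aorta. Levels were compared between genes in FPKM, which scales fragments by transcript length and library size. The FPKM of *Cdh13* was 73.1, 122 and 137 in WT and 55.1, 105 and 106 in *Npr1+/-* (replicates 1 to 3 in this order, here and in all lists of 3 values), with a mean of 99.6 over the 6 libraries. *Pcdh7* followed with a mean of 49.8 and *Pcdhgc3* with a mean of 32.6, and each overlapped in its range over the 6 libraries with the gene before it. Within each library, however, *Cdh13* was above *Pcdh7*. *Pcdh7* was above *Pcdhgc3* in all libraries but *Npr1+/-* 1, where they were at 21.0 and 28.1. The lowest library of *Pcdhgc3*, at 28.1, was far above the highest of *Cdh11*, the next gene, at 7.47. In all, 32 members had a mean FPKM of at least 1, 35 lay between 0.1 and 1, and 21 were under 0.1. In the plot of levels outside the clusters, the triangles of the libraries numbered 1 sit to the left of the other symbols for *Cdh13*, *Pcdh7* and *Cdh6* and to the right for *Cdh2* and *Cdh23*.

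**Figure D1:**
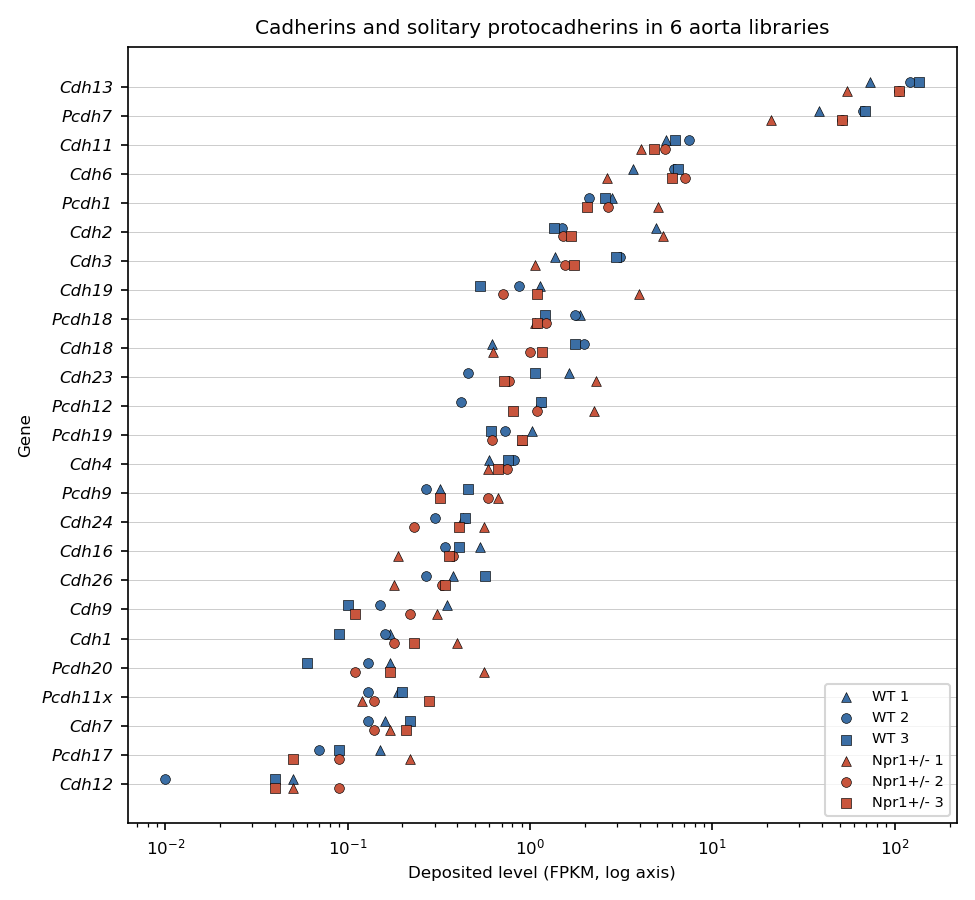
FPKM on a log axis for the 25 cadherins and solitary protocadherins that passed the filter on low counts, 1 row per gene ordered by mean FPKM; blue marks are WT, red marks *Npr1+/-*, and the symbol gives the replicate number (triangle 1, circle 2, square 3). *Cdh13* and *Pcdh7* lie apart from the rest at means of 99.6 and 49.8, and the red triangle (*Npr1+/-* 1) lies to the right of all other marks for *Cdh19* and *Pcdh20*.

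No member differed between *Npr1+/-* and WT aortas past the thresholds, which were 0.05 for the adjusted p and 0.5 for the absolute log2 fold change. The filter on low counts passed 64 members (25 outside the clusters and 39 clustered), and 0 of the 64 were called, where 0% of all 13938 genes tested were called as well. The smallest adjusted p among the members was 0.999 by edgeR's quasi-likelihood test and Benjamini-Hochberg adjustment, and over all genes it was 0.592. At an unadjusted p under 0.05 there was 1 member, *Cdh11*, against 2.96% of all genes. DESeq2, run without the filter on low counts, called 0.0887% of the genes it tested and 0 members. It had 5 of the 88 members at an unadjusted p under 0.05, against 3.24% of all genes. Of these, 3 had positive and 2 negative fold changes, against 2.31% and 0.932% of all genes. *Pcdh10* and *Pcdha10*, both positive, had not passed the filter. The 25 tested members outside the clusters had a median log2 fold change of 0.04, with 14 positive and 11 negative, and the 39 clustered members had a median of -0.16, with 14 positive and 25 negative. Over all genes tested the median was 0.01 and 51.6% were positive. Without *Npr1+/-* 1 the medians were -0.10 for members outside the clusters, -0.12 for clustered members and -0.03 for all genes. Without WT 1 the first of these medians was 0.27. In bulk tissue, fewer cells of a type and less RNA per cell cannot be told apart.

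With the replicate number as a block, 6 members had an unadjusted p under 0.05 and all 6 had negative fold changes, where 12.4% of all genes passed this p and 5.09% passed it with a negative fold change. The labels do not say that libraries of equal number belong together. The 6 members were *Cdh11*, *Pcdh7*, *Cdh3*, *Pcdhgc3*, *Pcdhgc5* and *Pcdhga5*, and the smallest adjusted p among them was 0.214 by edgeR's quasi-likelihood test and Benjamini-Hochberg adjustment, so that 0 members were called, as were 0% of all genes. Without *Npr1+/-* 1 and without the block, 4 members passed the unadjusted p against 2.51% of all genes, namely *Pcdhga9* and *Pcdhga2* with positive and *Pcdhgc5* and *Pcdhb11* with negative fold changes. The count at this p was 6 without WT 1 (6.13% of all genes), 0 without WT 2 (1.37%) and 4 without *Npr1+/-* 2 (3%). All 3 *Npr1+/-* libraries were below all 3 WT libraries for 5 of the 64 members (*Cdh11*, *Pcdhgc3*, *Pcdhgc5*, *Pcdhgb8* and *Pcdhb22*), against 3.58% of all genes, and above them for 1 member, *Cdh1*, against 3.9%. Within the 3 numbered pairs, 15 members were lower in *Npr1+/-* in every pair and 5 were higher, against 16.9% and 17.5% of all genes. The plot of fitted differences shows how the estimates moved when *Npr1+/-* 1 was left out, most of all for *Pcdhb11*, *Cdh19*, *Cdh23* and *Pcdh20*. The sign turned for 15 of the 64 members (8 outside the clusters and 7 clustered). The share of all genes whose sign turned was not counted. Positive fold changes made up 51.6% of all genes tested with all libraries and 43.5% without *Npr1+/-* 1.

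**Figure D2:**
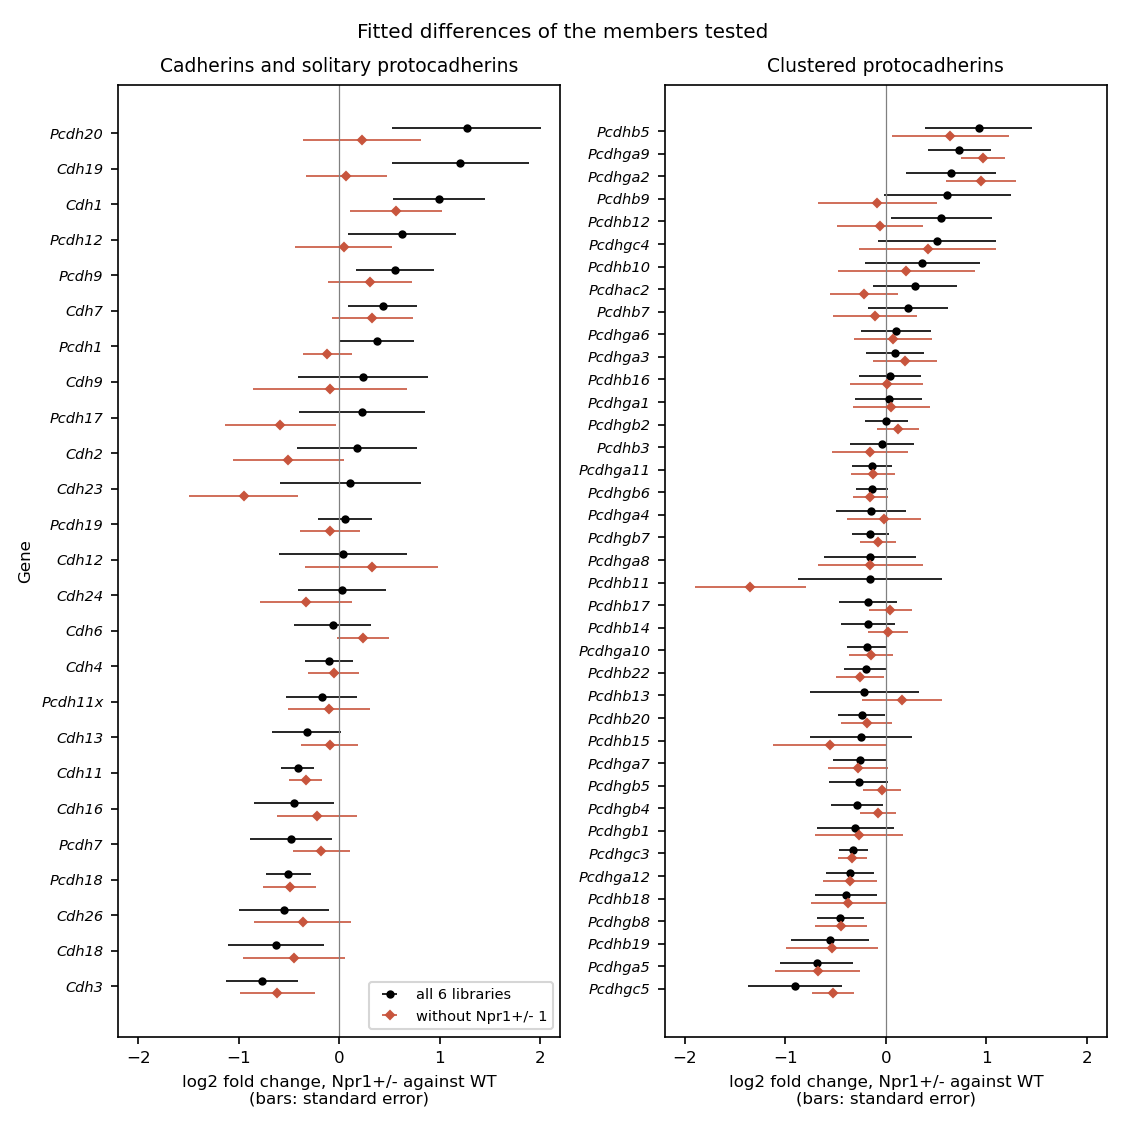
Log2 fold change of *Npr1+/-* against WT for the 64 members tested, outside the clusters on the left and clustered on the right; black circles are fits of all 6 libraries, red diamonds fits without *Npr1+/-* 1, and bars are standard errors. *Pcdh20* and *Cdh19* lie at 1.27 and 1.21 with all libraries and at 0.22 and 0.07 without *Npr1+/-* 1, while *Cdh11* and *Pcdhgc3* lie at -0.41 and -0.32 with all libraries and at -0.34 and -0.34 without it.

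Among the classical cadherins, *Cdh3* and *Cdh1* showed the largest fitted differences and *Cdh2* varied mainly with the replicate number. *Cdh2* (N-cadherin, of muscle and neural cells) was at 26.2, 10.5 and 7.60 CPM in WT 1 to 3 and at 28.9, 9.05 and 12.1 CPM in *Npr1+/-* 1 to 3. Both libraries numbered 1 were high, and the groups overlapped (log2 fold change 0.18, standard error 0.59). *Cdh3* (P-cadherin) was at 5.54, 12.3 and 12.5 CPM in WT and at 4.49, 6.39 and 6.93 CPM in *Npr1+/-*. The groups overlapped through WT 1, and the *Npr1+/-* library was the lower one in each numbered pair, at 81.0%, 51.8% and 55.5% of WT (log2 fold change -0.77, standard error 0.36; with the block -0.72, standard error 0.21). *Cdh1* (E-cadherin, of epithelia) was scarce, with 10, 11 and 7 counts in WT and 26, 13 and 16 counts in *Npr1+/-*, or 0.613 ± 0.159 against 1.23 ± 0.547 CPM (SD, n = 3 each). All 3 *Npr1+/-* libraries were above all 3 WT libraries (log2 fold change 0.99, standard error 0.46, and 0.57 without *Npr1+/-* 1). Of 8 markers of mesothelium and other epithelium, 6 were highest in *Npr1+/-* 1 as well, while *Krt8* and *Krt18* were lowest there. The 8 markers summed to 8.24 to 13.3 CPM in WT and 9.73 to 15.3 CPM in *Npr1+/-*. Of this sum, *Krt18* held 5.32, 10.6 and 10.8 CPM in WT 1 to 3 and 3.42, 8.42 and 6.23 CPM in *Npr1+/-* 1 to 3. Between 0 and 3 of the markers were under 3 counts in a library. The part of these markers in the result was not tested. *Cdh4* (R-cadherin) was at 3.72, 5.00 and 4.88 CPM in WT and at 3.85, 4.68 and 4.13 CPM in *Npr1+/-*, a narrow range in both genotypes. *Cdh15* (M-cadherin, of skeletal muscle) had at most 1 count in any library, which is under the floor of 3 counts.

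Of the type II cadherins, *Cdh11* gave the most even difference between the genotypes. *Cdh11*, a cadherin of mesenchymal cells and osteoblasts, lies on chromosome 8 from 102632095 to 102785493 (GRCm38.p6). Its level was 27.8, 36.5 and 31.9 CPM in WT 1 to 3 and 20.9, 27.6 and 23.6 CPM in *Npr1+/-* 1 to 3, or 32.0 ± 4.34 against 24.1 ± 3.40 CPM (SD, n = 3 each). Every *Npr1+/-* library was below every WT library, and in the numbered pairs the values were 75.1%, 75.8% and 74.2% of WT. The log2 fold change was -0.41 (standard error 0.16), with an adjusted p of 0.999 without the block and 0.214 with it by edgeR's quasi-likelihood test and Benjamini-Hochberg adjustment. Over all alternatives the log2 fold change of *Cdh11* stayed between -0.53 and -0.31. Fibroblast markers, from cells in which *Cdh11* is known, summed to 3719, 4254 and 2772 CPM in WT and 2259, 3137 and 3193 CPM in *Npr1+/-*, with 0 of 6 called, and their part in the result was not tested.

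*Cdh6* (K-cadherin) was of similar abundance to *Cdh11* but went with the replicate number. It was at 28.9, 47.3 and 52.8 CPM in WT and at 21.4, 56.6 and 45.4 CPM in *Npr1+/-*. The 2 libraries numbered 1 were the lowest of all 6, and the WT range lay within that of *Npr1+/-* (log2 fold change -0.06, standard error 0.38). Its sign turned without *Npr1+/-* 1, with a log2 fold change of 0.24. *Cdh19*, known from the Schwann cell lineage, was at 4.89, 3.76 and 2.35 CPM in WT and at 17.6, 3.10 and 4.70 CPM in *Npr1+/-*. Only *Npr1+/-* 1 was above the WT range, and the log2 fold change was 1.21 (standard error 0.68) with it and 0.07 (standard error 0.40) without it. *Cdh18* was at 1.68, 5.31 and 5.00 CPM in WT and at 1.85, 2.78 and 3.11 CPM in *Npr1+/-*, again with both libraries numbered 1 lowest. The groups overlapped.

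The remaining type II cadherins that were tested had low levels. *Cdh7* was at 0.66, 0.80 and 0.93 CPM in WT and at 1.21, 0.89 and 1.14 CPM in *Npr1+/-*. It was the only one of them with the *Npr1+/-* library higher in each numbered pair (log2 fold change 0.43, standard error 0.34). *Cdh9* had 15, 7 and 5 counts in WT and 14, 13 and 5 counts in *Npr1+/-*, and *Cdh24* had 16, 13 and 20 counts in WT and 22, 10 and 17 counts in *Npr1+/-*. *Cdh12* had 10.8, 2.99 and 10.6 counts in WT and 3.88, 11.5 and 9.75 counts in *Npr1+/-*. In all of these the groups overlapped.

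*Cdh13*, the cadherin with the highest level, encodes T-cadherin, which is held in the membrane by a lipid anchor and has no cytoplasmic part. It lies on chromosome 8 from 118140017 to 119324929 (GRCm38.p6). Its level was 268, 447 and 526 CPM in WT and 212, 396 and 383 CPM in *Npr1+/-*, or 414 ± 132 against 330.2 ± 103 CPM (SD, n = 3 each). The libraries numbered 1 were lowest in both genotypes and the groups overlapped, while each *Npr1+/-* library was below its numbered WT library, at 79.0%, 88.5% and 72.9% (log2 fold change -0.32, standard error 0.35). Without *Npr1+/-* 1 the log2 fold change was -0.10. *Cdh23*, a cadherin of the tip links of hair cells in the ear, was at 9.77, 2.90 and 5.19 CPM in WT and at 13.0, 3.48 and 2.73 CPM in *Npr1+/-*, so that both libraries numbered 1 were the highest (log2 fold change 0.11, standard error 0.70, and -0.95, standard error 0.55, without *Npr1+/-* 1). *Cdh16* (kidney cadherin) was at 1.53, 0.99 and 1.24 CPM in WT and at 0.57, 1.14 and 1.02 CPM in *Npr1+/-*, and *Cdh26* at 0.88, 0.74 and 1.54 CPM in WT and at 0.50, 0.89 and 0.76 CPM in *Npr1+/-*. Both were lowest in *Npr1+/-* 1, with overlapping groups and log2 fold changes of -0.45 and -0.55, and of -0.22 and -0.37 without that library.

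The delta protocadherins were led by *Pcdh7*, which followed the same order of libraries as *Cdh13*. *Pcdh7* is a delta-1 protocadherin on chromosome 5 from 57716145 to 58133236 (GRCm38.p6). It was at 303, 532 and 576 CPM in WT and at 176, 425 and 411 CPM in *Npr1+/-*. The libraries numbered 1 were lowest and the groups overlapped through WT 1, with numbered pairs at 57.9%, 79.9% and 71.4% of WT (log2 fold change -0.48, standard error 0.41). With the block it was -0.53 (standard error 0.16), with an adjusted p of 0.241 by edgeR's quasi-likelihood test and Benjamini-Hochberg adjustment, and without *Npr1+/-* 1 and without the block it was -0.18. Of 6 smooth muscle markers, 6 were lowest in the 2 libraries numbered 1, where they summed to 20225 and 12403 CPM against 32616 to 37012 CPM in the other 4 libraries. *Cdh3*, *Cdh6*, *Cdh13* and *Pcdh7* had the same libraries lowest. In all, 13 of the 64 tested members had this pattern, against 24.1% of all genes. The part of smooth muscle content in the values of any of them was not tested.

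*Pcdh1*, a delta-1 protocadherin of epithelia and endothelia, was at 11.2, 8.08 and 10.8 CPM in WT and at 20.4, 10.7 and 7.88 CPM in *Npr1+/-*. Only *Npr1+/-* 1 was above the WT range, and the log2 fold change went from 0.38 (standard error 0.37) to -0.12 without it. *Pcdh18*, of the delta-2 group, was at 9.70, 9.13 and 6.49 CPM in WT and at 5.70, 6.52 and 5.59 CPM in *Npr1+/-*, with each numbered pair lower in *Npr1+/-* and the groups overlapping by *Npr1+/-* 2 and WT 3 (log2 fold change -0.51, standard error 0.22). *Pcdh19*, a partner of N-cadherin that is mutated in a form of epilepsy, was at 9.26, 6.60 and 5.87 CPM in WT and at 8.84, 5.76 and 8.01 CPM in *Npr1+/-* (log2 fold change 0.06, standard error 0.27). These ranges nearly coincide. *Pcdh9* was at 1.97, 1.54 and 2.59 CPM in WT and at 3.92, 3.29 and 1.78 CPM in *Npr1+/-*. *Pcdh11x* was at 1.24, 1.11 and 1.79 CPM in WT and at 1.07, 1.08 and 1.53 CPM in *Npr1+/-*. *Pcdh17* was at 1.53, 0.68 and 0.93 CPM in WT and at 2.28, 0.89 and 0.51 CPM in *Npr1+/-*. These 3 had overlapping groups and log2 fold changes of 0.55, -0.17 and 0.23. Without *Npr1+/-* 1 these were 0.30, -0.10 and -0.58, so that the sign of *Pcdh17* turned.

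*Pcdh12*, a protocadherin of endothelial cells, was at 6.34, 2.34 and 6.67 CPM in WT and at 13.0, 6.20 and 4.45 CPM in *Npr1+/-*. As for *Pcdh1*, the library *Npr1+/-* 1 was highest and the groups overlapped (log2 fold change 0.62, standard error 0.53, and 0.04 without *Npr1+/-* 1). All 7 endothelial markers were highest in the same library, with a summed level of 467 to 823 CPM in WT and of 1358, 925 and 873 CPM in *Npr1+/-* 1 to 3, and their part in these values was not tested. *Pcdh20* was at 0.88, 0.68 and 0.31 CPM in WT and at 3.06, 0.57 and 0.89 CPM in *Npr1+/-*, with *Npr1+/-* 1 far above the other 5 libraries (log2 fold change 1.27, standard error 0.74, and 0.22 without that library). *Pcdh10*, a delta-2 protocadherin, did not pass the filter and had, as rounded, 1, 0 and 1 counts in WT and 43, 4 and 6 counts in *Npr1+/-*. All 3 *Npr1+/-* libraries were above WT, where it was under 3 counts throughout, and 1 of them held most of the counts. Its adjusted p by edgeR's quasi-likelihood test without the filter was 0.992 without the block and 0.153 with it. By DESeq2 it was 0.475, so that *Pcdh10* was not called in any of these fits.

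*Cdh19*, *Pcdh20* and *Pcdhb12* were the 3 tested members that had more than 2 times the highest of the other 5 libraries in *Npr1+/-* 1, a pattern of 2.65% of all genes. *Pcdhb12* was at 0.73, 0.62 and 0.62 CPM in WT and at 1.64, 0.63 and 0.64 CPM in *Npr1+/-*, so that the other 5 libraries nearly coincided. Besides the 18 neuronal markers, 8 of 9 Schwann cell markers other than *Cdh19* were highest in this library, with a summed level of 361 CPM against 55.3 to 99.0 CPM in the other 5. The neuronal markers *Th* and *Chrna3* were at 0 in all WT libraries and in *Npr1+/-* 3, and at 70.3 and 22.4 CPM in *Npr1+/-* 1. The part of nerve tissue in the levels of these 3 members and of *Pcdh10* was not tested. Both libraries numbered 1 were below the other 4 for 13 of the 64 members, against 24.1% of all genes, and above them for 9, against 23.9%. Of the 9 members above, 7 were outside the clusters, among them *Cdh2*, *Cdh23*, *Pcdh1* and *Pcdh19*. In the plot of members beside marker lists, each member is set under a list that had the same libraries high or low. The likeness of a member to its list was therefore fixed by this choice. Lists not plotted shared these patterns, as 6 of 6 adipocyte markers were highest in *Npr1+/-* 1 too. Of these, 5 were higher in both libraries numbered 1 than in the other 4, and their part was not tested.

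**Figure D3:**
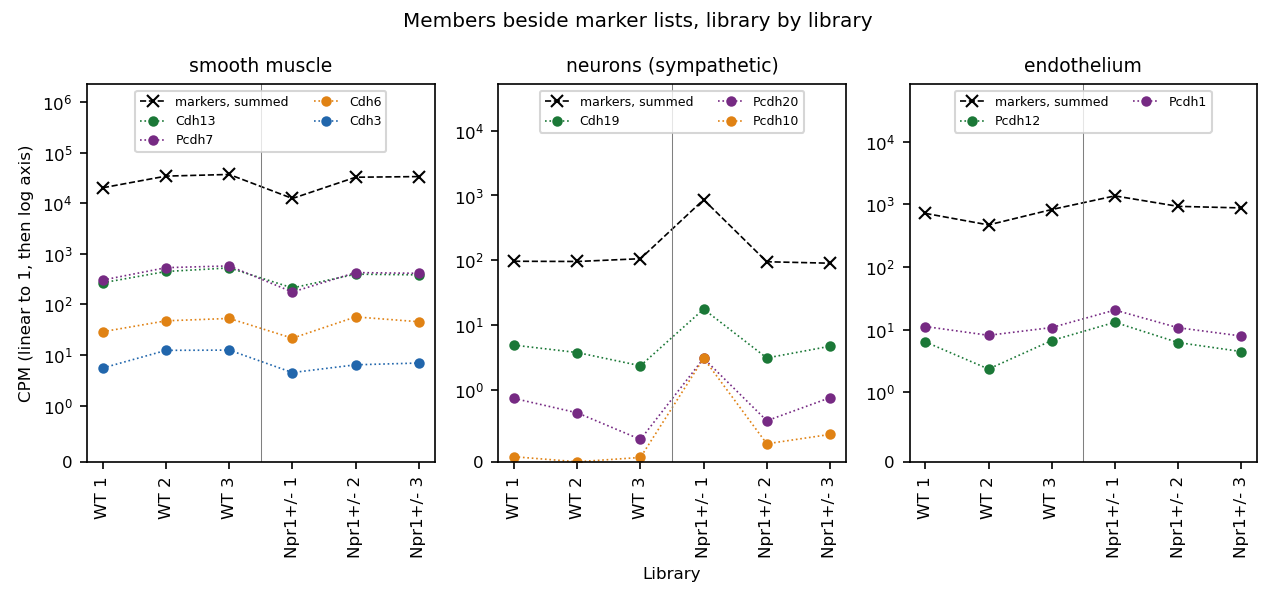
Normalised CPM of selected members (coloured points) and the summed CPM of marker lists (black crosses) in each of the 6 libraries, on an axis that is linear to 1 and logarithmic above; a vertical line parts WT from *Npr1+/-*. Smooth muscle markers and *Cdh13*, *Pcdh7*, *Cdh6* and *Cdh3* are lowest in the libraries numbered 1, and *Npr1+/-* 1 is highest for neuronal markers (861 CPM) with *Cdh19*, *Pcdh20* and *Pcdh10*, and for endothelial markers (1358 CPM) with *Pcdh12* and *Pcdh1*.

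The 54 clustered protocadherins lie on chromosome 18, Pcdha from 36930285 to 37188897, Pcdhb from 37294840 to 37521419 and Pcdhg from 37661775 to 37841873 (GRCm38.p6). The Pcdhg cluster carried most of their expression, the Pcdhb cluster far less, and most Pcdha genes were near the floor. Values of single clustered genes are uncertain, because reads from shared sequence were divided among genes by estimation. The estimated counts were whole numbers in all libraries for 0 of the 54 clustered genes and for 23 of the other 34 members. Of the 50-base windows of a transcript, between 48.2% and 61.3% also occurred in another member for Pcdha genes (10 matched), between 20.1% and 54.6% for Pcdhg genes, a median of 4.82% for Pcdhb genes, and 0% for members outside the clusters. For this reason the clusters were also compared as sums.

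The summed Pcdhg cluster was at 327, 391 and 420.0 CPM in WT 1 to 3 and at 295, 330.2 and 334 CPM in *Npr1+/-* 1 to 3, or 379 ± 47.5 against 319.9 ± 21.5 CPM (SD, n = 3 each). The groups overlapped because WT 1 was below *Npr1+/-* 2 and 3, and the numbered pairs were at 90.3%, 84.5% and 79.6% of WT (log2 fold change -0.25, standard error 0.16, and -0.19 without *Npr1+/-* 1). The summed Pcdhb cluster was at 40.9, 44.7 and 46.3 CPM in WT and at 39.3, 41.5 and 41.1 CPM in *Npr1+/-*. These groups overlapped too, with pairs at 96.2%, 92.8% and 88.8% of WT (log2 fold change -0.12, standard error 0.10). The summed Pcdha cluster was at 2.77, 4.01 and 3.27 CPM in WT and at 11.3, 3.80 and 2.54 CPM in *Npr1+/-*. Only *Npr1+/-* 1 was above the WT range, and the log2 fold change was 0.81 (standard error 0.57) with it and -0.083 (standard error 0.33) without it.

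Within the Pcdhg cluster, *Pcdhgc3* took between 41.1% and 46.5% of the counts in each library. *Pcdhgc3* is one of the C-type genes at the end of the cluster, which are known to be used without the random promoter choice of the others. It was at 149, 181 and 185 CPM in WT 1 to 3 and at 137 CPM in each of *Npr1+/-* 1 to 3, or 172 ± 19.9 against 137 ± 0.157 CPM (SD, n = 3 each). The *Npr1+/-* values rest on 1926, 2167 and 2162 estimated counts. An SD of 3 such values does not include their counting error and is no measure of precision. Every *Npr1+/-* library was below every WT library (log2 fold change -0.32, standard error 0.14, adjusted p = 0.999 without the block and 0.361 with it by edgeR's quasi-likelihood test and Benjamini-Hochberg adjustment). Over all alternatives its log2 fold change stayed between -0.42 and -0.28. *Pcdhgc5*, the last C-type gene, was at 13.7, 10.6 and 11.3 CPM in WT and at 2.28, 7.53 and 9.15 CPM in *Npr1+/-*. The groups did not overlap and *Npr1+/-* 1 was far below the rest (log2 fold change -0.90, standard error 0.47, and -0.53 without *Npr1+/-* 1). *Pcdhgc4* had 1.17, 3.33 and 1.17 CPM in WT and 2.99, 1.27 and 3.88 CPM in *Npr1+/-*, with overlapping groups.

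The other 19 Pcdhg genes, 12 of type A and 7 of type B, had mean FPKM of 0.777 to 4.03. Of the 12 type A genes, 7 had negative log2 fold changes (median -0.14), and of the 7 type B genes, 6 did (median -0.27). *Pcdhgb6* was at 16.4, 20.7 and 22.9 CPM in WT and at 18.2, 18.5 and 17.8 CPM in *Npr1+/-*. *Pcdhgb2* was at 15.8, 11.7 and 17.4 CPM in WT and at 12.2, 17.3 and 15.4 CPM in *Npr1+/-*. *Pcdhga10* was at 16.1, 11.7 and 18.0 CPM in WT and at 12.4, 13.5 and 14.3 CPM in *Npr1+/-*. These were the highest of the type A and B genes by mean CPM, and all 3 overlapped between the genotypes, with log2 fold changes of -0.14, 0.01 and -0.19. *Pcdhgb8* was at 4.30, 4.44 and 4.69 CPM in WT and at 3.14, 2.85 and 3.81 CPM in *Npr1+/-*, with no overlap (log2 fold change -0.46, standard error 0.23). *Pcdhga5* was at 12.5, 18.3 and 21.7 CPM in WT and at 10.6, 15.6 and 6.36 CPM in *Npr1+/-*, with pairs at 85.1%, 85.3% and 29.2% of WT (log2 fold change -0.69, standard error 0.36). Its groups overlapped, and *Npr1+/-* 3 was the lowest library. *Pcdhga9* was at 3.50, 3.39 and 3.21 CPM in WT and at 3.42, 6.83 and 6.48 CPM in *Npr1+/-*, so that *Npr1+/-* 2 and 3 were above WT while *Npr1+/-* 1 was within its range (log2 fold change 0.73, standard error 0.31, and 0.97 without *Npr1+/-* 1). *Pcdhga2* was at 2.19, 2.22 and 3.89 CPM in WT and at 2.21, 6.14 and 4.64 CPM in *Npr1+/-*, again with *Npr1+/-* 2 and 3 above WT (log2 fold change 0.64, standard error 0.45, and 0.95 without *Npr1+/-* 1).

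In the Pcdhb cluster, 18 of 21 genes had at least 3 counts in all 6 libraries, and *Pcdhb17*, *Pcdhb14*, *Pcdhb22* and *Pcdhb20* were the highest. *Pcdhb17* was at 8.17, 12.2 and 11.3 CPM in WT and at 6.06, 11.3 and 10.6 CPM in *Npr1+/-*, lowest in the libraries numbered 1 (log2 fold change -0.18, standard error 0.29, and 0.04 without *Npr1+/-* 1). *Pcdhb14* was at 6.34, 6.23 and 7.29 CPM in WT and at 3.92, 6.83 and 6.74 CPM in *Npr1+/-*, and *Pcdhb20* at 4.16, 3.70 and 4.08 CPM in WT and at 3.06, 3.16 and 3.88 CPM in *Npr1+/-*. Both were lowest in *Npr1+/-* 1 and overlapped. *Pcdhb22* was at 5.11, 4.94 and 5.13 CPM in WT and at 4.63, 3.73 and 4.83 CPM in *Npr1+/-*. Its groups did not overlap, although *Npr1+/-* 3 came close to WT 2 (log2 fold change -0.20, standard error 0.22). *Pcdhb11* was at 1.02, 0.56 and 0.86 CPM in WT and at 1.57, 0.25 and 0.38 CPM in *Npr1+/-*, with *Npr1+/-* 1 highest and *Npr1+/-* 2 and 3 lowest of all libraries (log2 fold change -0.16, standard error 0.72, and -1.35 without *Npr1+/-* 1). The 16 Pcdhb genes tested had a median log2 fold change of -0.17, with 6 positive and 10 negative. The 5 others, *Pcdhb2*, *Pcdhb4*, *Pcdhb6*, *Pcdhb8* and *Pcdhb21*, had at most 18 counts in a library. Among them the groups of *Pcdhb21* did not overlap, at 0.88, 0.62 and 1.11 CPM in WT and at 0.57, 0.38 and 0.38 CPM in *Npr1+/-*. *Pcdhb6* reached 3 counts only in *Npr1+/-* 1, and the other 5 libraries were under this floor.

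In the Pcdha cluster, *Pcdhac2*, a C-type gene, was the only one that passed the filter. It was at 2.33, 3.46 and 2.53 CPM in WT and at 5.42, 2.78 and 2.03 CPM in *Npr1+/-* (log2 fold change 0.29, standard error 0.42, and -0.22 without *Npr1+/-* 1). It held 73.6% to 86.1% of the Pcdha counts in 5 libraries and 48.2% in *Npr1+/-* 1. The 10 other alpha genes together had 6, 9 and 12 counts in WT and 81, 16 and 8 counts in *Npr1+/-*. At least 3 counts were reached by 1, 2 and 3 of these genes in WT and by 7, 2 and 1 in *Npr1+/-*. The library *Npr1+/-* 1, where the alpha genes were high, is also the one with 861 CPM of neuronal markers against 90.0 to 106 CPM in the others, and the part of nerve tissue in these values was not tested. *Pcdha5* had 0, 4.57 and 4.21 counts in WT and 0, 8.11 and 8.20 counts in *Npr1+/-*, and was the one of these genes at 0 in both libraries numbered 1 and present in the other 4. *Pcdha10* (23.9 counts) and *Pcdha1* (20.5 counts) were the highest in *Npr1+/-* 1 and were at 0 in all WT libraries. In the plot of the clusters, the Pcdha panel holds red triangles above 0 for genes where most other marks lie at 0.

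**Figure D4:**
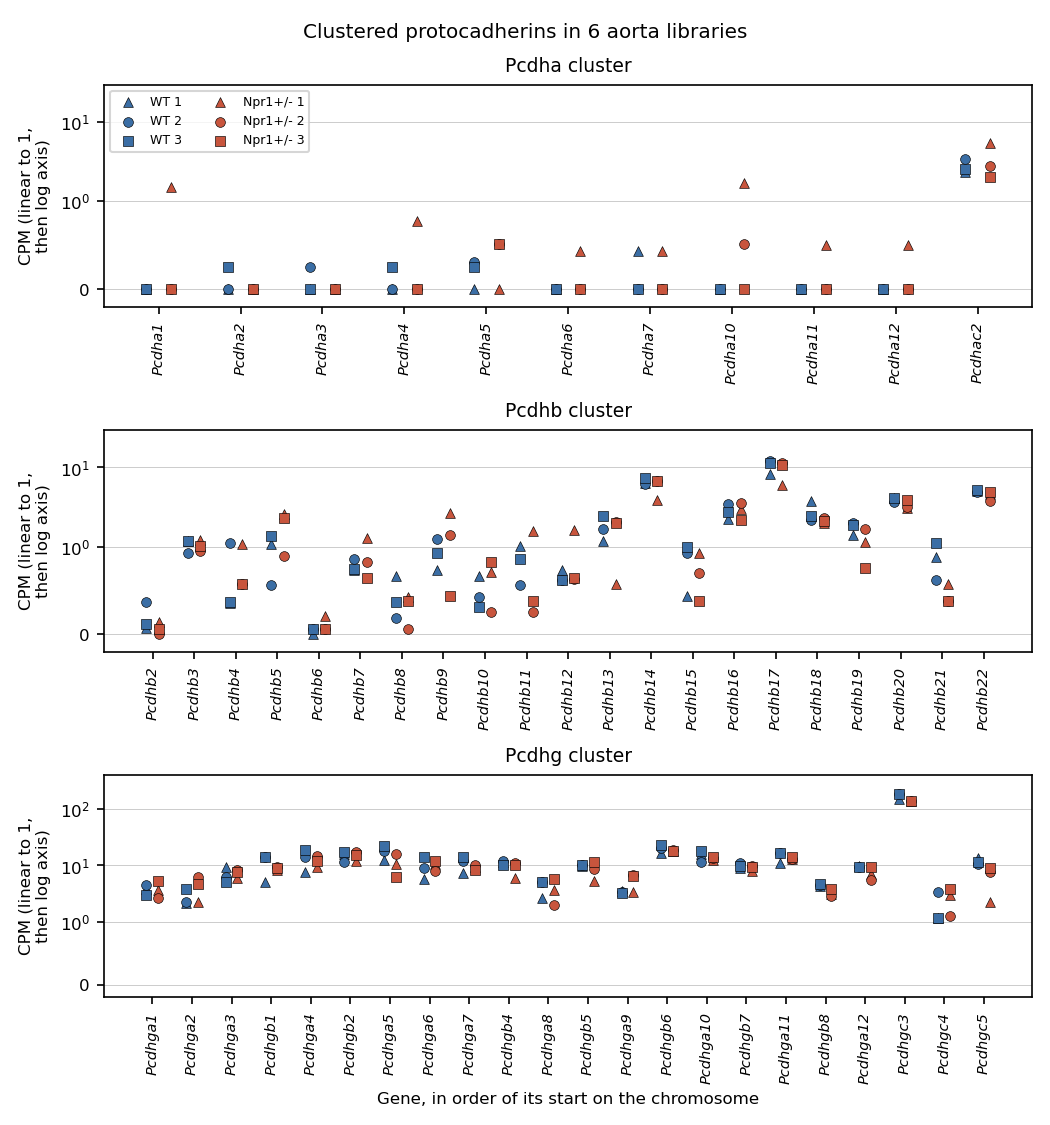
Normalised CPM of the 54 clustered protocadherins in the order of their start on the chromosome, 1 panel per cluster, on an axis that is linear to 1 and logarithmic above; blue marks are WT, red marks *Npr1+/-*, and the symbol gives the replicate number. *Pcdhgc3* stands above the other Pcdhg genes at 137 to 185 CPM, Pcdhb levels reach at most 12.2 CPM, and 8 of 11 Pcdha genes reach at least 3 counts in *Npr1+/-* 1 against 2 to 4 in the other libraries.

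Outside the clusters, 9 members did not pass the filter, namely *Cdh8*, *Cdh10*, *Cdh15*, *Cdh17*, *Cdh20*, *Cdh22*, *Pcdh8*, *Pcdh10* and *Pcdh15*. Apart from *Pcdh10*, none of them had more than 9 counts in a library. *Pcdh15*, the tip-link partner of *Cdh23*, had at most 7.52 counts, and *Pcdh8* reached 3 counts in *Npr1+/-* 1 and was at 0 in the other 5 libraries. Levels of the members other than *Pcdh10* were too low at this depth to show a difference.

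Genes that work with cadherins were compared from 7 lists with 84 genes, of which 63 were tested and 0 were called. At an unadjusted p under 0.05, 2 had positive and 0 had negative fold changes, where 1.88% and 1.08% of all genes did, and with the block the counts were 4 and 6, where 7.36% and 5.09% did. The 10 genes with the block were *Clstn2*, *Ret*, *Clstn3* and *Ptk2b* with positive and *Dsp*, *Fat4*, *Zeb1*, *Smchd1*, *Clstn1* and *Dchs1* with negative fold changes, and their smallest adjusted p was 0.124 by edgeR's quasi-likelihood test and Benjamini-Hochberg adjustment. The 2 without the block were both cadherin-related genes. *Clstn2*, a calsyntenin of synapses, was at 0.729, 1.48 and 1.11 CPM in WT and at 8.27, 2.09 and 4.13 CPM in *Npr1+/-* (log2 fold change 2.11, standard error 0.57, and 1.46 without *Npr1+/-* 1). *Ret*, a receptor kinase with cadherin repeats that acts in neurons, was at 4.45, 4.32 and 3.09 CPM in WT and at 34.8, 7.78 and 9.34 CPM in *Npr1+/-* (log2 fold change 2.13, standard error 0.61, and 1.10 without *Npr1+/-* 1). The groups of both genes did not overlap, and both were highest in the library with the high neuronal markers, whose part was not tested. Their adjusted p was 0.999 by edgeR's quasi-likelihood test and Benjamini-Hochberg adjustment. Of the 63 partner genes tested, 5 had all *Npr1+/-* libraries above all WT libraries, against 3.9% of all genes. Besides *Clstn2* and *Ret* these were *Zeb2*, *Psen2* and *Ptk2*. For 1 gene, the cluster regulator *Smc1a*, all *Npr1+/-* libraries were below all WT libraries, against 3.58% of all genes. Of the 15 tested catenins and plaque genes, 6 had positive and 9 negative fold changes (median -0.06). *Ctnnb1* (beta-catenin, one of the catenins between classical cadherins and actin) was at 575 ± 122 CPM in WT and 492 ± 82.7 CPM in *Npr1+/-* (SD, n = 3 each). Of the 12 regulators of protocadherin clusters, 2 had positive and 10 negative fold changes (median -0.10). Among them *Ctcf*, which binds the promoters of the clusters, was at 66.1 ± 6.56 against 63.5 ± 6.72 CPM, and *Smchd1*, which silences them, at 47.3 ± 6.73 against 38.7 ± 6.24 CPM (SD, n = 3 each), both with overlapping groups. The *Npr1+/-* library was the lower one in each numbered pair for *Smchd1* (log2 fold change with the block -0.29). The same was true of *Ctcf*, *Smc1a*, *Wiz*, *Stag2* and *Wapl* among the 12 regulators, and of 16.9% of all genes.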

How the data were processed

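Expression was measured by RNA sequencing of whole aortas. Per the labels and the study's methods, the authors filtered reads with SOAPnuke, aligned them to a coding gene set with Bowtie2 and deposited estimated counts (expected counts) and FPKM from RSEM. RSEM divides a read that fits several genes between them, which makes single genes of the protocadherin clusters uncertain. The submitters' processing notes name mm10 (GRCm38) as the build. The 4 deposited columns of group means were not used. Of 18191 genes, 18070 were paired with a symbol by NCBI identifier, and coordinates are those of RefSeq on GRCm38.p6.

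Expected counts were rounded, and CPM were normalised by TMM in edgeR 4.0.16 (R 4.3.3). The quasi-likelihood test was fitted to all genes that passed edgeR's filter (minimum count 10), with Benjamini-Hochberg adjustment over 13938 genes, and the thresholds for a call were 0.05 for the adjusted p and 0.5 for the absolute log2 fold change. Alternatives were DESeq2 1.42.0, its size factors, no filter, limma 3.58.1 on log2(FPKM + 0.1), the replicate number as a block, and each library left out. The scripts were tested on simulated data. Clusters were summed before a separate fit. Leaving out both libraries numbered 1, the block without the filter, and the block and left-out libraries for cluster sums were chosen after seeing the data.

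Deviations from the genotype mean correlated across genes at 0.645, 0.386 and 0.235 between libraries of the same number, and at -0.58 to 0.445 between different numbers. Since the 3 values for the same number were all above 0.1, the numbers were treated as pairs, on the labels and this check alone. Crossed libraries numbered 2 and 3 correlated at 0.371 and 0.445, so that the check does not tell number 2 from number 3. Deviations cancel within a genotype. With both libraries numbered 1 apart from the rest, positive values are therefore favoured for numbers 2 and 3 in any pairing. The check could not show that the numbers pair animals, and results by pair or block depend on a pairing that was not shown. The libraries were all different. Intervals were not given, and the floor of 3 counts covers counting error only.

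Members and lists were chosen with earlier results of these data known. Full values were given for the 8 members outside the clusters with the highest CPM, for tested members whose groups did not overlap or whose unadjusted p was under 0.05 with or without the block, and values alone for the 4 highest genes of each cluster by CPM and the other tested members outside the clusters. The partner genes given with values are those with an unadjusted p under 0.05 without the block, and those with the block are named. *Pcdh10*, *Pcdhb6*, *Pcdhb21*, *Pcdhga9*, *Pcdhga2*, *Pcdhb11*, *Pcdhb12* and *Pcdhgc4* among members and *Ctnnb1*, *Ctcf*, *Smchd1*, *Zeb2*, *Psen2*, *Ptk2* and *Smc1a* among partners were named after their values were seen. The same holds for the partners *Wiz*, *Stag2* and *Wapl* and the markers *Uchl1*, *Krt8*, *Krt18*, *Ryr2*, *Actc1*, *Acta1* and *Ckm*. Of 12 marker lists, those of neurons, Schwann cells, smooth muscle, endothelium, epithelium and fibroblasts are given in the report and the others in the closing section.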

Additional observations from a re-analysis of the deposited data

How the results depend on the processing

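The count of called members was 0 in every alternative run. The count of members at an unadjusted p under 0.05 was 1 with all libraries, 3 without a filter on low counts (against 3.1% of all genes), 5 with DESeq2, 6 with the replicate block, 9 without both libraries numbered 1 (against 11.5% of all genes), 12 with the block and no filter together (against 10.7%), and 0 to 6 with 1 library left out. With 1 library left out, the median log2 fold change ranged from -0.10 to 0.27 for members outside the clusters and from -0.20 to -0.05 for clustered members, and that of *Npr1* from -0.60 to -0.22. The summed Pcdha cluster ranged from -0.083 to 1.16, with the lowest value without *Npr1+/-* 1, and was at 0.53 with the block. Of the 14 members given in full, 10 kept their direction in all alternatives. The sign turned for *Cdh6* (-0.37 to 0.24 with 1 library left out, positive without WT 2, WT 3 or *Npr1+/-* 1, and 0.027 without both libraries numbered 1), *Cdh2* (-0.51 to 0.88, negative without the same 3 libraries), *Pcdh1* (-0.12 to 0.64, negative without *Npr1+/-* 1, and -0.020 without both libraries numbered 1) and *Pcdh19* (-0.092 to 0.27, negative without the same 3 libraries as *Cdh2*). The cause was not tested. The block, which treats equal replicate numbers as pairs, changed no call. It moved the median of members outside the clusters to -0.02. With 3 libraries per genotype and floors of 0.18 to 0.222 CPM, the 24 members under the filter were not tested in the main fit. Fits without this filter tested them in whole or in part. *Pcdhb21* also passed the filter when *Npr1+/-* 1 was left out (log2 fold change -1.19).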

Other observations

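The remaining marker lists, fixed for cell types that an aorta sample can hold, gave these summed levels. Adipocyte markers were at 6923, 1209 and 1808 CPM in WT 1 to 3 and at 9901, 3148 and 2690.2 CPM in *Npr1+/-* 1 to 3, with the libraries numbered 1 highest in both genotypes. Macrophage markers were at 334, 226 and 145 CPM in WT and at 242, 167 and 156 CPM in *Npr1+/-*, again highest in the libraries numbered 1. Lymphatic endothelial markers were at 113, 64.1 and 42.6 CPM in WT and at 113, 68.4 and 74.8 CPM in *Npr1+/-*. Cardiomyocyte markers ranged from 69.9 to 81.1 CPM, skeletal muscle markers from 4.16 to 7.55 CPM and lymphocyte markers from 1.67 to 6.63 CPM over all libraries. These sums hide single markers. *Ryr2* was at 28.4 to 63.2 CPM, while *Actc1* was at 3.35, 3.15 and 1.11 CPM in WT and at 28.6, 9.74 and 18.4 CPM in *Npr1+/-*. *Acta1* was higher in all *Npr1+/-* libraries (0.679 to 1.23 CPM in WT, 2.10 to 4.85 CPM in *Npr1+/-*). *Ckm* was lower (2.55 to 5.37 CPM in WT, 1.92 to 2.53 CPM in *Npr1+/-*). The groups of the other cardiomyocyte and skeletal muscle markers overlapped. None of the genes on these lists was called.

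The genes most like the summed clustered protocadherins across the 6 libraries were *Ppp2r5c*, *Wfikkn2* and *Prrc2b*, with Pearson's r of 0.996, 0.994 and 0.992 over 6 libraries, and of at least 0.994, 0.987 and 0.983 with any 1 library left out. These genes were picked for the highest r over the same 6 libraries, so that high values follow from the choice. Leaving out 1 library after this choice is not a separate check. The libraries also share their normalization and the shift of the replicate numbers, so that these values describe the 6 libraries only.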
